A study of Mus musculus with 2 samples.

Results

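The genes studied were those of the T cell receptor (TCR) complex and of its proximal signaling: the CD3 chains Cd3d, Cd3e, Cd3g and Cd247, the kinases Lck and Zap70, the adaptor Lat, and the receptors Cd5 and Cd6. They were taken by symbol and made up 9 of the 32285 genes listed, and all 9 were detected in both libraries. C57BL/6 T cells and T cell–depleted bone marrow were given to lethally irradiated BALB/c mice, a fully allogeneic model of acute graft-versus-host disease. Splenic cells were sorted for CD45, TCRβ and donor H2kb without host H2kd, and captured for single-cell RNA-seq at day +7 and day +14, in libraries whose names carry PBS. Each day was 1 library of cells pooled from several mice, so no spread between animals was measured. Both groups carried the transplant, no library of naive or syngeneic T cells was analysed here, and the sources give more than 1 T cell dose. The sort is described for day +7 in the labels of both libraries, so the day was taken from their titles.

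The TCR itself has almost no cytoplasmic tail and signals through the CD3 chains, whose tails carry tyrosine motifs that Lck phosphorylates. ZAP-70 docks on the phosphorylated motifs and in turn phosphorylates LAT, a membrane scaffold on which the downstream complexes assemble. CD5 and CD6 are related scavenger-type receptors that sit near the TCR and tune its signal, with CD5 known as a brake whose level follows signal strength. The comparison across days addressed how the transcripts of this machinery differed between the early and the later alloreactive T cells.

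After filtering, 7179 of 7355 barcodes at day +7 and 7794 of 8043 at day +14 were kept, with 86745047 and 83808218 unique molecular identifiers (UMIs, which count transcripts once) and medians of 9210 and 8144 UMIs per barcode. The libraries shared 20 barcode sequences, of which 17 were kept in both. Gates were drawn on genes outside the 9. The CD8 gate held 5617 barcodes at day +7 and 5764 at day +14, the conventional CD4 gate 458 and 695, and the Foxp3+ gate 50 and 47. In the Foxp3+ gate the regulatory T cell markers Foxp3, Il2ra, Ikzf2 and Ctla4 together amounted to 1341 CPM (counts of UMIs per 1000000 UMIs of the gate) at day +7 and 2315 CPM at day +14, against 128 CPM and 165 CPM in the conventional CD4 gate. Foxp3 defines both gates, and made up 223 CPM and 350 CPM of the Foxp3+ sums and 0 of the CD4 sums. Outside the gate rule, Il2ra was at 238 CPM and 193 CPM against 52.2 CPM and 21.4 CPM in the CD4 gate. Ikzf2 was at 512 CPM and 1025 CPM against 28.7 CPM and 59.4 CPM. Ctla4 was at 369 CPM and 747 CPM against 46.7 CPM and 83.9 CPM. Summed markers of other lineages in the CD8 gate were 22.3 CPM and 3.20 CPM for B cells, 7.29 CPM and 0.616 CPM for natural killer cells, and 32.6 CPM and 37.6 CPM for myeloid cells at day +7 and day +14. Of these markers 1 B cell marker was at 0 UMIs at day +7, and their part in the results was not tested. Levels are summed over the barcodes of a gate, and brackets give exact 95% intervals that cover counting error only. With 1 library per day no test between days was possible, and a call is a ratio of 1.5-fold or more.

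Cd3d, Cd3e and Cd3g lie together on chromosome 9 (mm10): Cd3g at chr9:44969572-44980431 on the minus strand, Cd3d at chr9:44981786-44987339 on the plus strand and Cd3e at chr9:44998740-45009627 on the minus strand. The RefSeq starts of Cd3g and Cd3d, which are read away from each other, are 1355 bases apart, and those of Cd3d and Cd3e 27825 bases, with the RefSeq start of Cd3e at base 45009611. Cd247, which encodes the zeta chain, lies elsewhere, at chr1:165788681-165877277 on the plus strand. The 250 bases before each RefSeq start (build GRCm38.p6, the assembly of mm10) are shown for these 4 genes, whose transcripts shifted against each other between the days. Capitals mark matches, on either strand, to the letters of 6 motifs of factors known in T cells. The ETS motif AGGAAGT was found in 7.69% of all 32851 promoters of this length and the RUNX motif TGTGGT in 14% of them. The TCF-1/LEF-1 motif was searched as CTTTGA (13.8% of promoters) and the E-box as CAGNTG (44.8% of promoters). The core of the CRE was searched as TGACG (17.8% of promoters) and the motif of the GATA factors was searched for as AGATAA (9.99% of promoters). The windows are chr9:44981536-44981785 (plus strand) for Cd3d, chr9:44980432-44980681 (minus strand) for Cd3g, chr9:45009612-45009861 (minus strand) for Cd3e and chr1:165788431-165788680 (plus strand) for Cd247.
Cd3d: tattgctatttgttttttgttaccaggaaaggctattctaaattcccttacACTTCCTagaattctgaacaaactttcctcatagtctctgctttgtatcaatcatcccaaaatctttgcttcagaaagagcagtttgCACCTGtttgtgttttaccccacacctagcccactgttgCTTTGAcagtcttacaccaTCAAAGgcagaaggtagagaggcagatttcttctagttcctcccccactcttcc
Cd3g: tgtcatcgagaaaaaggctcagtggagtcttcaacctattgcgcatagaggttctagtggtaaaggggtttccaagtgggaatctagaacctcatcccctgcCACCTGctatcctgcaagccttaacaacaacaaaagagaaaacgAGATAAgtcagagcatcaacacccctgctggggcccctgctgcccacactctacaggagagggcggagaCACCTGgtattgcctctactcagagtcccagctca
Cd3e: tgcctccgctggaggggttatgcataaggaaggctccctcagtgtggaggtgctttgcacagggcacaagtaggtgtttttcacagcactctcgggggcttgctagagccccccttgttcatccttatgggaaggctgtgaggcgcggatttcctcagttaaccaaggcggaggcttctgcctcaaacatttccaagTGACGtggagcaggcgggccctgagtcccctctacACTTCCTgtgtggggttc
Cd247: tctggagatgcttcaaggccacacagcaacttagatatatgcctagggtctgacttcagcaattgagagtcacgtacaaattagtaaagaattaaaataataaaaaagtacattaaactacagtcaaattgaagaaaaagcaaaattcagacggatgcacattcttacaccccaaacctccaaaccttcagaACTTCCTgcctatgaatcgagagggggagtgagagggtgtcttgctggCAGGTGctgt
The Cd3d window held an ETS match starting 199 bases before the start, an E-box match at 112 and TCF-1/LEF-1 matches at 73 and 54. The Cd3g window held no ETS match but had E-box matches at 148 and 35 and a GATA match at 104. Cd3e had a CRE core match at 53 and an ETS match at 18, and Cd247 an ETS match at 58 and an E-box match at 10. These are letter matches and do not show binding. The promoter table matched 8 of the 9 genes, all but Cd6.

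In CD8 T cells the CD3 chains did not keep 1 ratio between the days. Cd3e, the chain that pairs with both delta and gamma, measured 408 CPM at the earlier and 600.4 CPM at the later day, which gave a log2 ratio of 0.56 [0.53, 0.58] or 1.47-fold. Cd3g, the gamma chain, stood at 981 CPM and 1297 CPM, a log2 ratio of 0.40 [0.39, 0.42]. Cd3d, the delta chain, stood at 1177 CPM and 1273 CPM, a log2 ratio of 0.11 [0.098, 0.13] that turned to -0.10 when the libraries were scaled by a median ratio of genes instead of by totals. That median was taken over the 9836 genes with 100 or more UMIs in the CD8 gate at each day. Cd3e and Cd3g were thus higher at day +14 under both scalings, and Cd3d was not. Cd247, the signaling chain, stood at 117 CPM on both days, a log2 ratio of -0.0033 [-0.049, 0.042] under totals and -0.22 under median-ratio scaling. Among all 6832 genes tested in the CD8 gate, 88.9% had a lower ratio than Cd3e and 26.0% a lower ratio than Cd247.

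**Figure D1:**
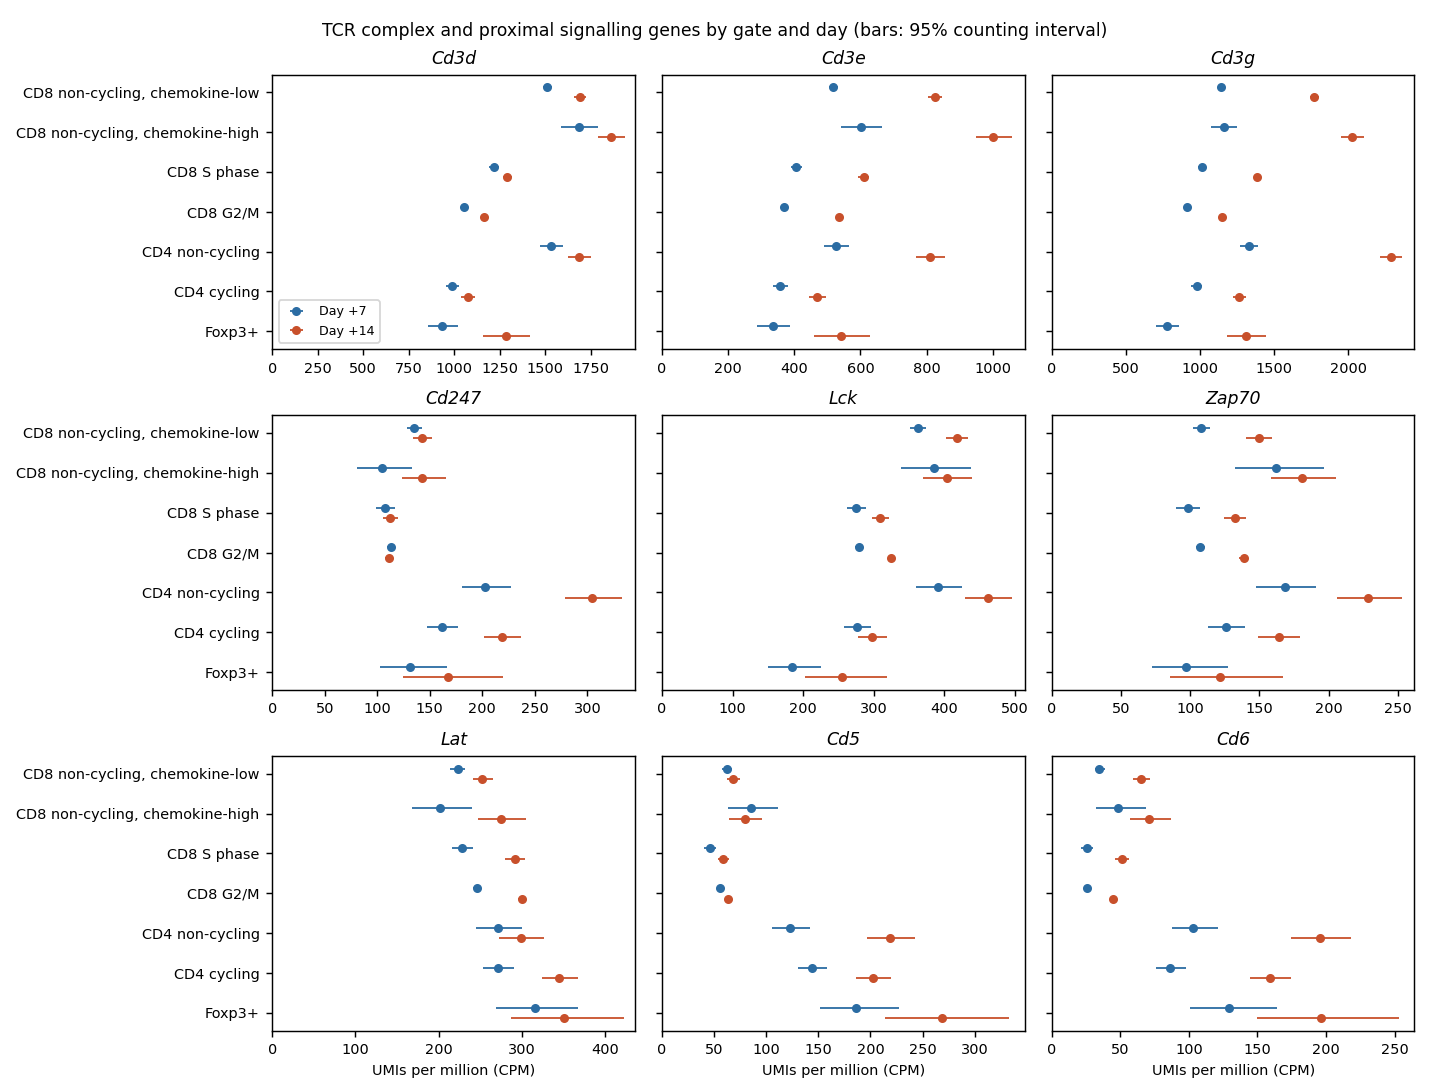
Level of each of the 9 genes (x axis, CPM) in 7 gates that share no barcode, at day +7 (blue) and day +14 (red), with bars for the exact 95% counting interval of a single library. Cd3e and Cd3g lie to the right at day +14 in every gate, and the Cd5 and Cd6 panels split into low CD8 gates and higher CD4 and Foxp3+ gates.

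The balance of the chains within a library, which no scaling between libraries can alter, moved the same way. In the CD8 gate there were 0.347 [0.342, 0.352] UMIs of Cd3e per UMI of Cd3d at day +7 and 0.472 [0.466, 0.478] at day +14. For Cd3g per Cd3d the values were 0.834 [0.825, 0.842] and 1.02 [1.01, 1.03]. Both ratios were higher at day +14 in 7 of 7 gates that share no barcode, and for each the intervals were separate in 6 of the 7, the Foxp3+ gate being the exception. Here and below, the gates are parts of the same 2 libraries and do not repeat the comparison between days. The Cd3e to Cd3d ratio reached its highest value, 0.538 [0.502, 0.575], in chemokine-high CD8 cells at day +14, and the Cd3g to Cd3d ratio its highest, 1.36 [1.29, 1.42], in non-cycling conventional CD4 cells at day +14. Of the UMIs of the 4 chains in the CD8 gate, Cd3d made up 43.9% at day +7 and 38.7% at day +14, Cd3e 15.2% and 18.3%, Cd3g 36.6% and 39.5%, and Cd247 4.36% and 3.55%. These shares describe change between the days only, since UMIs of different genes are not set per length.

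The ratio of the zeta chain to Cd3d moved in different directions in the CD4 and CD8 gates taken as wholes. In the conventional CD4 gate Cd247 went from 178 CPM to 252 CPM, with a log2 ratio of 0.51 [0.38, 0.63], while its UMIs per barcode were 1.84 and 1.81. That ratio lay between those of Cd3d (0.17) and of Cd3e (0.60) and Cd3g (0.64) in the same gate. Of the UMIs of the 4 chains there, Cd247 made up 6.11% [5.71, 6.52] at day +7 and 6.36% [6.02, 6.71] at day +14, with overlapping intervals. Per UMI of Cd3d the CD4 value was 0.149 [0.138, 0.160] at day +7 and 0.188 [0.177, 0.200] at day +14, while the CD8 value was 0.0994 [0.0971, 0.102] and 0.0918 [0.0896, 0.0939]. The ratio to Cd3d was thus higher at day +14 in CD4 cells and lower in CD8 cells, with separate intervals in each. The difference between the lineages was not tested, as each had 1 library per day. Over the 7 gates the ratio to Cd3d was higher with separate intervals in 2, both of them CD4 gates, and lower in 1, the CD8 G2/M gate. In chemokine-low, chemokine-high and S-phase CD8 cells the intervals of the days overlapped. In chemokine-high cells the value was higher at day +14, 0.0767 against 0.0618.

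**Figure D2:**
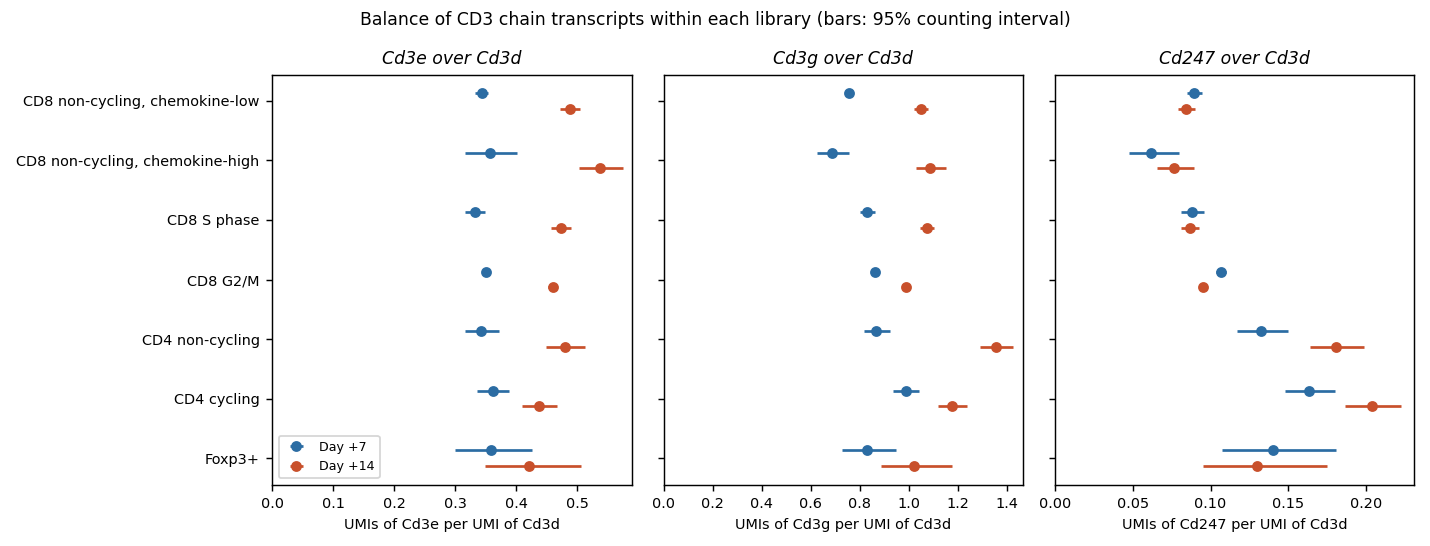
UMIs of Cd3e, Cd3g and Cd247 per UMI of Cd3d within each library (x axes), for 7 gates at day +7 (blue) and day +14 (red), with exact 95% counting intervals. The Cd3e and Cd3g ratios are higher at day +14 in all 7 gates, and the Cd247 ratio is highest in the cycling conventional CD4 gate at each day.

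Both kinases were higher in CPM at day +14, Zap70 by more than Lck. Lck (chr4:129548344-129573641, minus strand), the Src-family kinase bound to the CD4 and CD8 coreceptors, stood at 295 CPM and 337 CPM in the CD8 gate, a log2 ratio of 0.19 [0.16, 0.22] that became -0.026 under median-ratio scaling. Zap70 (chr1:36761798-36782818, plus strand) stood at 107 CPM and 140.3 CPM, a log2 ratio of 0.40 [0.35, 0.44] and 0.18 under median-ratio scaling. Per UMI of Lck, Zap70 was 0.361 [0.352, 0.371] at day +7 and 0.417 [0.407, 0.427] at day +14 in CD8 cells. The same ratio was 0.443 [0.404, 0.486] and 0.522 [0.483, 0.565] in conventional CD4 cells, with overlapping intervals. It was higher at day +14 in 6 of the 7 gates and with separate intervals in 3. Lat (chr7:126363824-126369570, minus strand) stood at 239 CPM and 293 CPM in the CD8 gate, a log2 ratio of 0.29 [0.26, 0.32] and 0.078 under median-ratio scaling.

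Of the regulatory receptors, Cd6 differed most between the days of the 9 genes in the CD8 gate. Cd6 (chr19:10789341-10830058, minus strand) went from 27.6 CPM to 48.8 CPM, with a log2 ratio of 0.82 [0.74, 0.90] or 1.77-fold, above that of 96.5% of the genes tested. Its neighbor Cd5 (chr19:10717116-10739002, minus strand) stood at 56.5 CPM and 63.2 CPM, a log2 ratio of 0.16 [0.096, 0.22] that turned to -0.054 under median-ratio scaling. The paired receptors thus shifted against each other, with 0.489 [0.462, 0.517] UMIs of Cd6 per UMI of Cd5 at day +7 and 0.772 [0.737, 0.809] at day +14. This ratio was higher at day +14 in 7 of 7 gates, with separate intervals in 3 of them.

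As a list, 1 of the 9 genes, Cd6, passed the 1.5-fold rule upward in the CD8 gate, where 9.44% of all genes tested did, and none passed it downward, where 2.88% did. The median of the 9 log2 ratios was 0.29 [0.26, 0.32], the value of Lat, and that of all 6832 genes was 0.19. Under median-ratio scaling, which moves every ratio in this gate by 0.21 on the log2 scale, the median of the 9 was 0.078. With the mean of per-cell CPM in place of summed UMIs, 2 of the 9 passed upward.

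The conventional CD4 gate gave larger ratios for most of the genes. There 4 of the 9 passed the 1.5-fold rule upward, where 15.4% of 6979 genes did, and none passed downward, where 3.02% did. Those 4 were Cd6, from 91.2 CPM to 177 CPM (log2 ratio 0.96 [0.79, 1.13]), Cd3g, from 1111 CPM to 1729 CPM (0.64 [0.59, 0.69]), Cd5, from 138 CPM to 214 CPM (0.63 [0.49, 0.78]), and Cd3e, from 424 CPM to 642 CPM (0.60 [0.52, 0.68]). Zap70 went from 140.2 CPM to 193 CPM, Lat from 272 CPM to 331 CPM, Lck from 317 CPM to 369 CPM and Cd3d from 1196 CPM to 1343 CPM, with log2 ratios of 0.46, 0.28, 0.22 and 0.17. The median of the 9 was 0.51 against 0.16 for all genes, and all 9 kept a ratio above 0 under each scaling tried. Depth moved with this comparison: median UMIs per barcode in the CD4 gate were 8259.5 at day +7 and 5325 at day +14. In UMIs per barcode Cd3d stood at 12.4 and 9.65, Lck at 3.27 and 2.66 and Lat at 2.81 and 2.38, lower at day +14, while Cd3e stood at 4.39 and 4.61 and Cd6 at 0.943 and 1.27. Zap70 stood at 1.45 and 1.39 UMIs per barcode and Cd247 at 1.84 and 1.81, also lower at day +14. A lower total per cell and a higher share of these transcripts therefore cannot be told apart for Cd3d, Lck, Lat, Zap70 and Cd247. Summed myeloid markers in the CD4 gate were 16.9 CPM at day +7 and 49.4 CPM at day +14, with none of the 4 at 0, and their part was not tested.

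**Figure D3:**
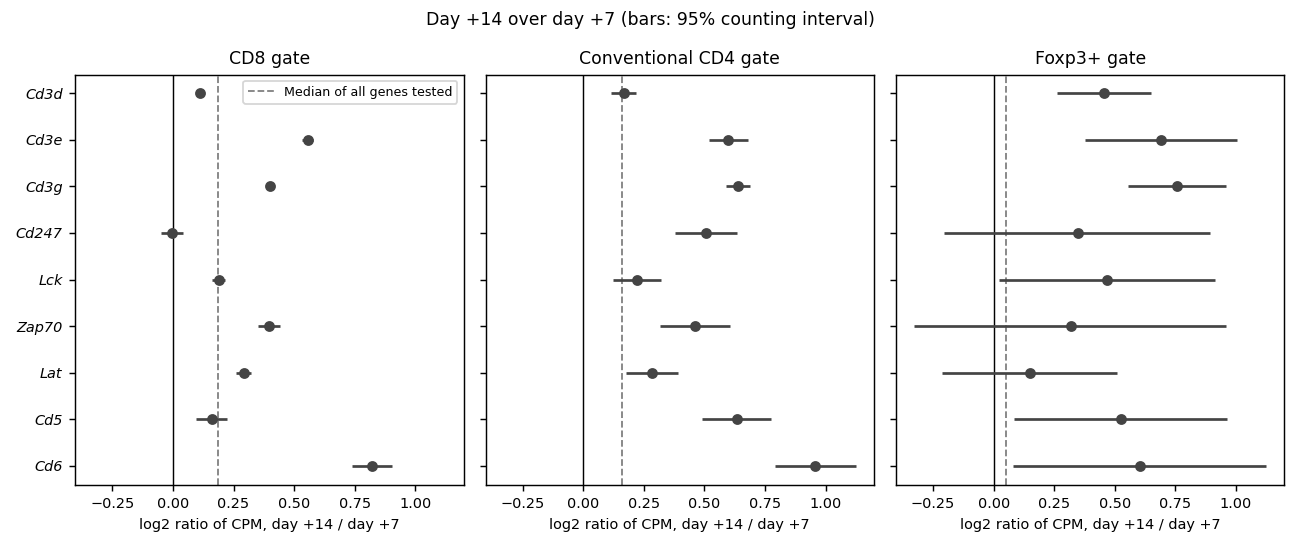
Log2 ratio of CPM at day +14 over day +7 for the 9 genes in the CD8, conventional CD4 and Foxp3+ gates, with exact 95% counting intervals, a solid line at 0 and a dashed line at the median of all genes tested. In the CD8 gate Cd6 lies farthest right and Cd247 on the 0 line, and in the CD4 gate all 9 genes lie to the right of the dashed line.

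Split by cell cycle and chemokine state, the CD8 cells differed in which genes passed between the days. In chemokine-low non-cycling cells 3 of the 9 passed upward (17.3% of genes did) and none downward (3.93% did): Cd6 at a log2 ratio of 0.91, Cd3e at 0.67 and Cd3g at 0.63. In chemokine-high cells 2 passed upward (19.5% did) and none downward (8.11% did), Cd3g at 0.80 and Cd3e at 0.74. Summed myeloid markers in the chemokine-high cells were 14.4 CPM at day +7 and 78.4 CPM at day +14, and their part was not tested. In S-phase cells 2 passed upward (12.9% did) and none downward (3.13% did), Cd6 at 0.99 and Cd3e at 0.59. In G2/M cells 1 passed upward (7.8% did) and none downward (2.72% did), Cd6 at 0.79. In non-cycling conventional CD4 cells 5 of the 9 passed upward (21.2% of genes did) and none downward (4.64% did), namely Cd6, Cd5, Cd3g, Cd3e and Cd247 at 0.92, 0.83, 0.78, 0.63 and 0.59, and in cycling CD4 cells 1 passed upward (12.3% did) and none downward (3.85% did), Cd6 at 0.88. Cd6 thus passed in every one of these gates but the chemokine-high one, where its ratio was 0.55. Depth moved in the non-cycling CD4 gate, with median UMIs per barcode of 6655 at day +7 and 4326.5 at day +14. In UMIs per barcode Cd247 stood there at 1.45 and 1.46 and Cd3e at 3.75 and 3.88. Cd3g stood at 9.495 and 10.96, Cd5 at 0.876 and 1.047 and Cd6 at 0.738 and 0.935. The part of depth in the calls of that gate was not tested.

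In the Foxp3+ gate, which rests on 50 and 47 barcodes, 3 of the 9 genes passed upward (14.9% of 2247 genes did) and none downward (6.76% did). Cd3g stood at 776 CPM and 1310.0 CPM (log2 ratio 0.76 [0.55, 0.96]), Cd3e at 335 CPM and 540.4 CPM (0.69 [0.38, 1.01]) and Cd6 at 129 CPM and 196 CPM (0.60 [0.078, 1.13]). The intervals of Cd247, Zap70 and Lat included 0 at this depth. Median UMIs per barcode in this gate were 8872.5 at day +7 and 4807 at day +14. In UMIs per barcode Cd3g stood at 8.16 and 8.51, Cd3e at 3.52 and 3.51 and Cd6 at 1.36 and 1.28. A lower total per cell and a higher share therefore cannot be told apart for Cd3e and Cd6 here. Summed erythroid markers in this gate were 81.8 CPM at day +7 and 6.55 CPM at day +14, and myeloid markers 20.9 CPM and 42.6 CPM, and their part was not tested. The median of the 9 was 0.47 [0.020, 0.91], the value and counting interval of Lck, against 0.051 for all genes.

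Within each library, the lineages differed most in the CPM of Cd5, Cd6 and Cd247. At day +7 the CD4 over CD8 ratio passed 1.5-fold for 3 of the 9 genes (4.03% of genes tested did), and the same 3 genes passed at day +14 (7.19% did). No gene of the 9 passed downward at either day, where 2.27% and 3.28% of genes did. Cd6 was 3.30-fold higher in CD4 cells at day +7 and 3.63-fold at day +14, Cd5 2.44-fold and 3.38-fold, and Cd247 1.52-fold and 2.16-fold. Cd3d and Cd3e were near equal in CPM in the lineages, with log2 ratios at day +7 of 0.023 [-0.017, 0.061] and 0.055 [-0.011, 0.12]. Among non-cycling cells the CD4 over CD8 ratios of Cd5 were 1.93-fold and 3.12-fold, and those of Cd6 2.91-fold and 2.95-fold. Depth differed between the whole gates: median UMIs per barcode were 8259.5 in CD4 and 9451 in CD8 cells at day +7, and 5325 and 8818.5 at day +14. Cd247 stood at 1.84 and 1.40 UMIs per barcode at day +7, and at 1.81 and 1.32 at day +14. At day +14 Cd6 stood at 1.27 and 0.550, Cd5 at 1.54 and 0.712 and Cd3d at 9.65 and 14.3. The part of depth in the lineage ratios was not tested.

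**Figure D4:**
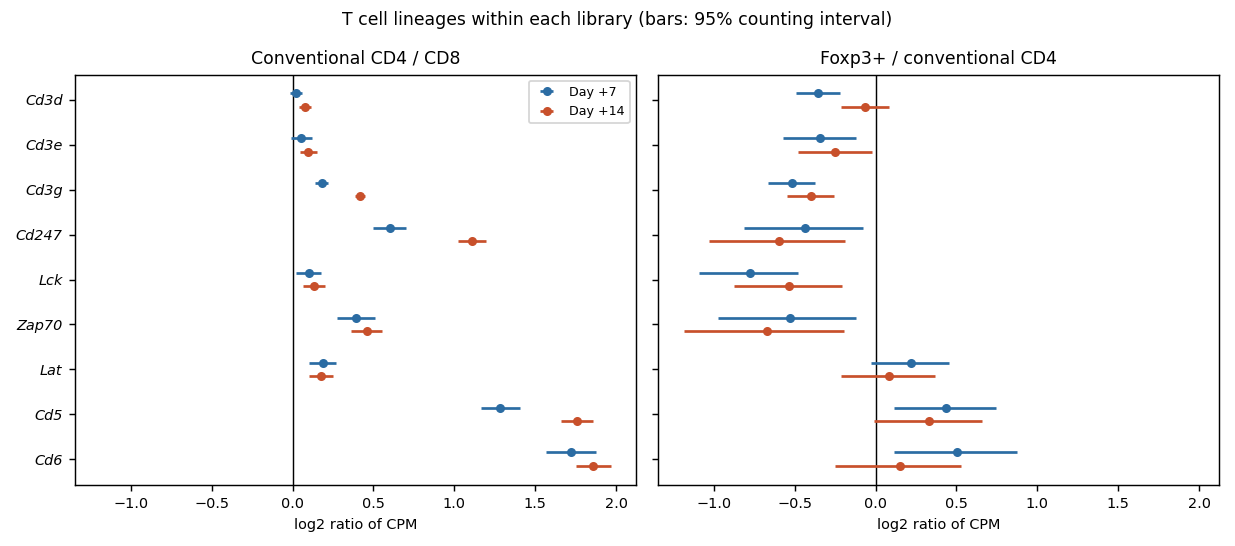
Log2 ratio of CPM between lineages within 1 library, conventional CD4 over CD8 (left) and Foxp3+ over conventional CD4 (right), at day +7 (blue) and day +14 (red) with exact 95% counting intervals. Cd247, Cd5 and Cd6 stand apart on the left, and on the right the CD3 chains, Lck and Zap70 lie at or below 0 while Lat, Cd5 and Cd6 lie above it.

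At day +7 the CD3 chains, Lck and Zap70 were lower in Foxp3+ than in conventional CD4 cells, and Cd5 and Cd6 were higher. At day +7 Lck was at 185 CPM in Foxp3+ cells and 317 CPM in conventional cells (log2 ratio -0.78 [-1.09, -0.48]), and it was the 1 gene of the 9 that passed downward, where 13.2% of genes did. None passed upward, where 11% did. Cd3g was at 776 CPM and 1111 CPM (-0.52 [-0.67, -0.37]) and Zap70 at 97.0 CPM and 140.2 CPM (-0.53 [-0.97, -0.12]). Cd5 was at 186 CPM and 138 CPM (0.44 [0.12, 0.75]) and Cd6 at 129 CPM and 91.2 CPM (0.50 [0.11, 0.88]), and Lat at 316 CPM and 272 CPM (0.22 [-0.026, 0.45]), an interval that included 0. At day +14, 2 of the 9 passed downward (15.2% of genes did), Zap70 at -0.67 and Cd247 at -0.59, and none upward (15.2% did). The day +14 intervals of Cd3d, Lat, Cd5 and Cd6 included 0.

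Cycling CD8 cells held less of most of these transcripts in CPM than non-cycling ones. G2/M cells numbered 2923 at day +7 and 3021 at day +14, and non-cycling CD8 cells 1632 and 1373. At day +14 Cd3e was at 535 CPM in G2/M and 854 CPM in non-cycling cells (log2 ratio -0.67 [-0.71, -0.64]) and Cd3g at 1149 CPM and 1814 CPM (-0.66 [-0.69, -0.63]). These were the 2 genes that passed downward, where 12.8% of genes did, and none passed upward, where 19.1% did. Cd6 was at 44.5 CPM and 66.2 CPM (-0.57), Cd3d at 1165 CPM and 1719 CPM (-0.56), Cd247 at 111 CPM and 143 CPM (-0.37) and Lck at 325 CPM and 415 CPM (-0.35). Lat was the exception, at 301 CPM in G2/M and 256 CPM in non-cycling cells (0.23 [0.16, 0.30]). The median of the 9 was -0.37 against 0.027 for all 7064 genes.

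At day +7 the ratios of Cd3e and Cd3g lay nearer to 0. Their G2/M over non-cycling log2 ratios were -0.50 [-0.55, -0.46] and -0.33 [-0.36, -0.30], the median of the 9 was -0.33 against 0.054 for all genes, and none of the 9 passed downward (9.17% of genes did) or upward (17.6% did). Lat again stood above 0, at 0.15 [0.090, 0.21]. Depth moved with the state: median UMIs per barcode were 13360 in G2/M and 6572 in non-cycling CD8 cells at day +7, and 12707 and 5182 at day +14. Per barcode G2/M cells therefore held more UMIs of Cd3d, 17.3 against 9.95 at day +14. With every barcode thinned to 4000 UMIs, which gives barcodes equal weight but leaves the expected share of a gene in each as it was, the day +14 ratios of Cd3e and Cd3g were -0.61 and -0.59. The part of depth in these ratios was not tested.

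In S-phase CD8 cells, 8 of the 9 genes were below non-cycling cells with intervals under 0 at both days. None passed 1.5-fold downward, where 9.4% of genes did at day +7 and 11.4% at day +14, or upward, where 14.7% and 15.8% did. Lat was the one above 0, at 0.044 [-0.055, 0.14] at day +7 and 0.19 [0.10, 0.27] at day +14. Cycling conventional CD4 cells showed the same for the CD3 chains. There 1 of the 9 passed downward at day +7, Cd3d at -0.63 (12.8% of genes did), and 4 at day +14, Cd3g at -0.86, Cd3e at -0.79, Cd3d at -0.65 and Lck at -0.63 (20.9% did). Lat stood at -3.9e-05 [-0.18, 0.18] at day +7 and 0.21 at day +14, and none passed upward (18.2% and 18.9% did).

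**Figure D5:**
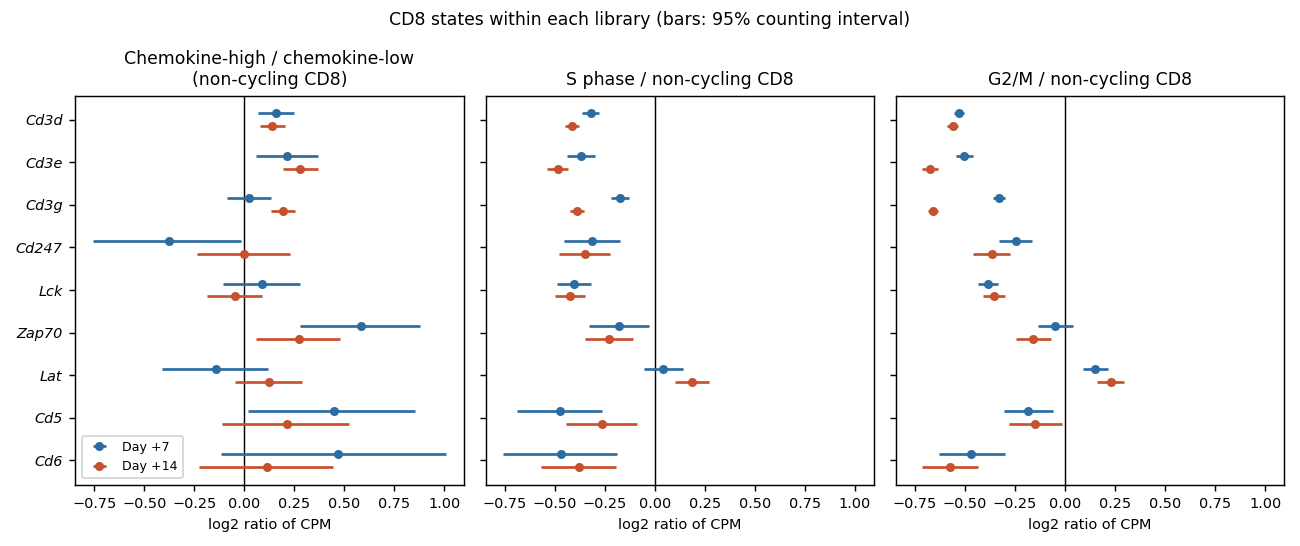
Log2 ratio of CPM between CD8 states within 1 library, at day +7 (blue) and day +14 (red) with exact 95% counting intervals, for chemokine-high over chemokine-low non-cycling cells, S phase over non-cycling and G2/M over non-cycling. In the S and G2/M panels every gene but Lat lies left of 0, and in the chemokine panel the ratios lie between -0.38 and 0.58.

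Chemokine-high CD8 cells, the non-cycling cells at or above the 90th percentile of summed Ccl1, Ccl3, Ccl4 and Xcl1, numbered 85 at day +7 and 216 at day +14. Chemokine-low cells are the other non-cycling CD8 cells, 1547 and 1157. The gate is a range of a score, and 34 and 84 cells lay within 20% of its limit. At day +14 Cd3e was at 1002 CPM in chemokine-high and 825 CPM in chemokine-low cells (log2 ratio 0.28 [0.19, 0.37]), Zap70 at 181 CPM and 149.6 CPM (0.27 [0.061, 0.48]), Cd3g at 2027 CPM and 1772 CPM (0.19 [0.13, 0.25]) and Cd3d at 1864 CPM and 1691 CPM (0.14 [0.076, 0.20]). At day +7 Zap70 was at 162 CPM and 108 CPM (0.58 [0.28, 0.88]), the highest ratio of the 9, and Cd247 was below 0 at -0.38 [-0.76, -0.017]. Zap70, Cd3d and Cd3e were thus above 0 at both days. None of the 9 passed 1.5-fold upward at day +7 (12% of genes did) or day +14 (4.67% did), or downward (9.04% and 3.88% did), and the medians of the 9 were 0.16 and 0.14 against 0.028 and 0.016 for all genes.

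Each gene had its own order of gates. Cd3d and Cd3e were lowest in Foxp3+ cells at day +7 (936 CPM and 335 CPM) and highest in chemokine-high CD8 cells at day +14 (1864 CPM and 1002 CPM). At the low end the intervals of Foxp3+ cells overlapped those of cycling CD4 cells at day +7 for both genes. Cd3g, Cd247, Lck and Zap70 were highest in non-cycling CD4 cells at day +14 (2289, 305, 462 and 229 CPM), and at that day the intervals of Cd3g, Cd247 and Zap70 were separate from the gate next in order, while that of Lck overlapped it. Cd5 and Cd6 were lowest in S-phase CD8 cells at day +7 (45.8 CPM and 25.7 CPM) and highest in Foxp3+ cells at day +14 (269 CPM and 196 CPM), and Foxp3+ cells overlapped the non-cycling CD4 gate in both. Cd6 was also at 25.7 CPM in G2/M CD8 cells at day +7, so its lowest place is shared. Over the 14 groups of gate and day the highest level was 7.66 times the lowest for Cd6, 5.87 times for Cd5 and 1.73 times for Lat. Lat thus had the narrowest range, with Cd3d next at 1.99 times.

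The shares of cells with a UMI followed the levels. With barcodes thinned to 4000 UMIs, Cd6 was found in 10.4% [9.57, 11.2] of 5542 CD8 barcodes at day +7 and 17.5% [16.5, 18.5] of 5358 at day +14, and in 23.7% and 35.5% of CD8 barcodes before thinning. Cd3e was found in 80.2% [79.2, 81.3] and 90.3% [89.5, 91.1], and Zap70 in 33.6% [32.3, 34.8] and 43.6% [42.2, 44.9]. Cd247 was found in 37.7% [36.5, 39.0] and 37.3% [36.0, 38.6]. Thinning left out 75 and 406 CD8 barcodes with under 4000 UMIs. The median barcode of the CD8 gate held 11 UMIs of the 4 chains per 4000 at day +7 and 14 at day +14, and that of the CD4 gate 12 and 16.

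Granulocyte-high barcodes, in which these genes should be absent, were read as a background. They numbered 39 and 69, with median depths of 13812 and 6516 UMIs against 9451 and 8818.5 in the CD8 gate. Their median barcode held 0 UMIs of the 4 chains per 4000, and 81.6% and 61.2% of them held none. Cd3d was found in 6 of 38 thinned barcodes at day +7 and 16 of 49 at day +14. The CPM values below therefore come from a part of these barcodes and are not a level for each. Cd6 was found in 0 of 38 thinned barcodes at day +7, which allows a share of up to 7.89% by a limit of 3 counts and 9.25% by the exact interval, and in 1 of 49 at day +14. Cd3e was at 68.2 CPM there at day +7 and 173 CPM at day +14, Cd3g at 160 CPM and 396 CPM and Cd3d at 219 CPM and 356 CPM, below every T cell gate but higher at day +14 as well. Cd3g thus lay below Cd3d at day +7 and above it at day +14 in these barcodes, as in the CD8 gate. The summed T cell receptor and Cd2 level of these barcodes was 689 CPM and 1373 CPM, and the part of this background in the ratios between days was not tested.

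The levels of the 9 genes varied together in groups over the 14 groups of gate and day, which share 2 libraries and differ in depth. On log2 (CPM + 1), Pearson's r was 0.95 for Cd5 with Cd6, 0.94 for Cd3e with Cd3g, 0.89 for Cd3d with Cd3e and 0.87 for Cd3d with Lck. Cd247 was nearer to Cd6 (0.80) and Cd5 (0.74) than to Cd3d (0.18), and Lat had r of -0.37 with Cd3d and -0.35 with Lck. The zeta chain thus lay nearer to the regulatory receptors than to the delta chain over these groups. Among 2516 genes compared, the most similar to Cd3e was Lnpep (0.96), to Cd3g Ifi27 (0.96), to Cd3d March2 (0.94), to Cd247 Ddit4 (0.87), to Lck Adcy7 (0.97), to Zap70 Rbpj (0.93), to Lat Mif4gd (0.95), to Cd5 Maf (0.95) and to Cd6 Izumo1r (0.97). For Cd3g, Cd5 and Cd6 another of the 9 genes was among the first 3: Cd3e, Cd6 and Cd5.

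The wider TCR pathway was read from 7 lists of 62 genes, of which 58 could be tested in the CD8 gate and 60 in the CD4 gate. In the CD8 gate 14 passed 1.5-fold upward, where 9.44% of all genes did, and 5 downward, where 2.88% did. The median log2 ratio of the 58 was 0.28 against 0.19 for all genes. All ratios of these lists are scaled by totals, and median-ratio scaling would lower each in the CD8 gate by 0.21. Upward calls that lie within that shift of the 1.5-fold limit, such as Cd226, Map4k1, Lcp2 and Irf4 below, thus depend on the scaling. Downward counts depend on it too. The kinase Prkcq, named after its value was seen, did not pass downward at -0.49 [-0.54, -0.43] but lies within that shift of the limit. In the CD4 gate 15 passed upward (15.4% of all genes did) and 5 downward (3.02% did), with a median of 0.35 against 0.16. The TCR chains did not share 1 ratio: in CD8 cells Trac went from 423 CPM to 618 CPM (0.55 [0.52, 0.57]), Trbc2 from 2072 CPM to 2866 CPM (0.47 [0.46, 0.48]) and Trbc1 from 875 CPM to 984 CPM (0.17 [0.15, 0.19]), with no call among 3 genes. In CD4 cells Trac passed upward, at 0.68 [0.61, 0.75], and Trbc1 downward, from 810.0 CPM to 452 CPM (-0.84 [-0.92, -0.77]). Trbc1 and Trbc2 are near-identical, so some reads may not be told apart between them and both values are uncertain. Of 6 kinases tested 2 passed upward and none downward in CD8 cells, against 9.44% and 2.88% of all genes. Fyn, the other Src-family kinase of T cells, went from 119 CPM to 255 CPM (1.10 [1.06, 1.13]), and Map4k1, a kinase that restrains the LAT complex, from 37.2 CPM to 60.0 CPM (0.69 [0.62, 0.76]).

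Among adaptors and effectors 5 of 14 tested in CD8 cells passed upward (9.44% of all genes did) and none downward (2.88% did). Lcp2, which encodes SLP-76, the partner of LAT, went from 64.3 CPM to 107 CPM (0.73 [0.68, 0.79]), and Sh2d2a, an adaptor that binds Lck, from 173 CPM to 367 CPM (1.08 [1.05, 1.12]). Of 4 costimulatory genes tested 1 passed upward, Cd226, from 154 CPM to 232.8 CPM (0.59 [0.56, 0.63]), and Cd48, the ligand of CD2, went from 572 CPM to 449 CPM (-0.35 [-0.37, -0.33]). These counts, like those of the lists that follow, stand against 9.44% of all genes upward and 2.88% downward in this gate. Of 7 phosphatases 1 passed downward, Ptpn6, which encodes SHP-1, from 123 CPM to 57.0 CPM (-1.11 [-1.17, -1.06]), while Ptpn7 went from 74.0 CPM to 106 CPM (0.52 [0.47, 0.57]).

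Genes that restrain TCR signaling went both ways, with 3 of 14 passing upward (9.44% of all genes did) and 3 downward (2.88% did) in CD8 cells. Cblb, a ubiquitin ligase, went from 71.4 CPM to 127 CPM (0.83 [0.78, 0.88]) and Dgkz, which removes diacylglycerol, from 56.9 CPM to 99.2 CPM (0.80 [0.74, 0.86]). The 3 that passed downward, named after their values were seen, were Pag1 (32.4 CPM and 13.5 CPM), Sit1 (40.0 CPM and 22.2 CPM) and Dok2 (131 CPM and 85.1 CPM). Among 10 outputs of the pathway 3 passed upward (9.44% of all genes did) and 1 downward (2.88% did). The 3, named after their values were seen, were the transcription factors Egr1, Myc and Irf4, with log2 ratios of 1.40 [1.24, 1.55], 0.85 [0.73, 0.97] and 0.80 [0.65, 0.95]. Their levels were low, at 7.14 CPM and 18.8 CPM for Egr1, 13.03 CPM and 23.5 CPM for Myc and 8.67 CPM and 15.04 CPM for Irf4. In CD4 cells Irf4 passed upward as well, at 0.91 [0.35, 1.48], where 15.4% of all genes did. Egr1 at 0.195 [-0.197, 0.59] and Myc at -0.0003 [-0.48, 0.48] did not pass there, and their intervals included 0. The 1 that passed downward in CD8 cells was Cd69, an early activation marker, which went from 73.3 CPM to 32.5 CPM (-1.17 [-1.25, -1.10]). The transcription factor Nfatc1, which did not pass, went from 59.3 CPM to 84.3 CPM (0.51 [0.45, 0.57]) in the same gate.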

How the data were processed

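The files hold UMI counts for each gene and barcode, deposited as whole numbers and made by the authors with Cell Ranger 6.1.2 on mm10 per the submitters' processing notes, for barcodes that passed its cell detection and with no normalization. The chemistry end is not given in the sources used here. Barcodes with 500 to 7500 genes and at most 15% mitochondrial UMIs were kept. T barcodes had at least 1 UMI of Trac, Trbc1 or Trbc2 and under 0.5% of UMIs from myeloid or from erythroid genes. CD8 cells had at least 2 UMIs of Cd8a plus Cd8b1 with no Cd4 or Foxp3, conventional CD4 cells at least 1 UMI of Cd4 with no Cd8a, Cd8b1 or Foxp3, and Foxp3+ cells at least 1 UMI of Foxp3 and at most 1 of Cd8a plus Cd8b1. T barcodes in none of these gates numbered 882 at day +7 and 1124 at day +14, and 157 and 399 held both Cd4 and Cd8 UMIs.

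Cycling cells had at least 10 UMIs per 10000, and at least 3 UMIs, of a list of 12 G2/M genes or else of an S-phase list, and non-cycling cells under 5 per 10000 of each. The chemokine limit was 16.9 UMIs per 10000, set on both libraries together. Granulocyte-high barcodes had at least 5% of UMIs from granule genes.

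UMIs were summed over the barcodes of a gate and divided by their total (CPM). Intervals are exact at 95%: Poisson for levels, conditional binomial for ratios and Clopper-Pearson for shares. Genes that averaged 10 CPM or more with 50 or more UMIs in both sums together were tested against the 1.5-fold rule. Scrublet, run in scanpy 1.11.5 on each library, marked 0 barcodes in each, so it did not work here and doublets remain. Leaving out the 433 and 518 highest scores was an alternative. Other tools were Python 3.11.15, numpy 2.4.6, scipy 1.17.1, pandas 2.3.3, anndata 0.12.19 and matplotlib 3.10.9. The calculation was tested on simulated data. Gene positions are from GENCODE on the mm10 assembly.

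Genes named are the 9, in each pathway list the 2 with the largest log2 ratio of either sign in the CD8 gate among genes reaching 50 CPM in either library, and for each of the 9 the genes of highest Pearson's r among those with a mean of 50 CPM or more. The 9 genes and all lists were chosen with earlier results of these data known.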

Additional observations from a re-analysis of the deposited data

Results flagged for a closer look

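The point values of some day +14 over day +7 log2 ratios had opposite signs in different gates, and none of these differences was tested, since each gate had 1 library per day. Of the values given here, all but that of Cd247 in the conventional CD4 gate had a counting interval that included 0, so an opposite direction is not shown. For Cd247 the ratio was -0.0033 in the CD8 gate and 0.51 in the conventional CD4 gate, and within the CD8 gate it was 0.097 in non-cycling and -0.024 in G2/M cells. For Cd5 it was 0.13 in chemokine-low and -0.10 in chemokine-high non-cycling CD8 cells, the latter on 85 and 216 barcodes.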

How the results depend on the processing

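No paired analysis was possible because each day has 1 library. The median log2 ratio of the 9 genes in the CD8 gate was 0.29, and 0.078 with scaling by the median ratio of genes, under which Cd3d (-0.10), Lck (-0.026) and Cd5 (-0.054) turned negative, as the construction of that scaling shifts every ratio there by 0.21. The count of genes at 1.5-fold or more in that gate was 1, and 2 with the mean of per-cell CPM. The medians for the conventional CD4 gate, for chemokine-high over chemokine-low and for G2/M over non-cycling CD8 cells at day +14 kept their direction under the alternatives run. Each stayed within the counting interval of the 1 gene that gave its main value. Of 297 values for single genes under alternatives, 258 stayed within the counting interval, 36 left it and 3 more, those named, turned sign. Values whose own interval included 0 could also change sign, such as Cd247 in the CD8 gate, which ran from -0.22 to 0.045. Without a filter on low genes, 22.8% of 16450 genes passed upward in the CD8 gate. The Foxp3+ and chemokine-high gates are limited by their few cells.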
